A study of Mus musculus with 42 samples.

Results

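The genes described here are 42 genes that mark endothelial cells, the cells that line blood and lymphatic vessels, measured in the wounded skin of db/db mice. They were taken from a list by name, and each was measured by 1 probe set, the one with the highest variance, on an Affymetrix Mouse430V2 array. All 42 genes were found among the 20672 probe sets, 40 by their symbol and 2 by an older symbol (Gpr116 and Eltd1, now Adgrf5 and Adgrl4). Of the 42, 16 are also known in blood cells or their precursors (Pecam1, Cd34, Icam1, Vwf, Selp and others), and 26 are not on that list.

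The db/db mouse lacks the long leptin receptor and is a model of diabetes with slow wound closure. Females of 10 to 12 weeks were used according to the methods, with splinted full-thickness wounds, and a ring of skin around each wound was collected. Of the 42 arrays, 18 were from day 7, after dosing every other day until day 6. These were 5 arrays of wounds given a control protein, 5 given IL-22-Fc (the cytokine IL-22 fused to an antibody Fc part), 5 given VEGF at 20 µg and 3 given PDGF at 50 µg. A further 19 were taken 24 h after 1 topical dose, with 4 control arrays and 5 each of IL-22-Fc (50 µg), VEGF (20 µg) and PDGF (50 µg). The remaining 5 were from untreated skin at day 0, whose genotype the labels do not give. Labels and methods differ in places. The control protein is called anti-ragweed by the labels but control Fc by the methods, which also give a larger VEGF dose, and the strain is C57BL/6 by the labels but db/db on a BKS background by the methods. The labels do not say that the arrays of a group came from separate animals, so p-values measure the spread between arrays.

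Endothelial cells hold each other through junction proteins such as VE-cadherin (Cdh5) and Pecam1, and their surface carries sialomucins such as endomucin (Emcn) and Cd34. Their identity rests on transcription factors of the ETS family (Erg, Fli1) and the SOXF family (Sox7, Sox17, Sox18). VEGF acts on endothelial receptors and drives endothelial growth and migration, and PDGF-BB acts mainly on mural cells and fibroblasts. The IL-22 receptor is found on epithelial cells, and IL-22 is also reported to act on fibroblasts. In inflamed tissue the endothelium presents P-selectin, E-selectin and Icam1, which slow and stop leukocytes, and it stores von Willebrand factor (Vwf) with P-selectin in Weibel-Palade bodies.

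The promoters of 3 genes are shown because 2 of them, Emcn and Myct1, had the largest measured VEGF changes, while Selp was not called with VEGF at day 7, with levels at background in both groups. Each sequence runs from 250 bases before to 50 bases after the annotated start (RefSeq, GRCm38.p6, plus strand), at chr3:137340828-137341127 for Emcn, chr10:5593478-5593777 for Myct1 and chr1:164115014-164115313 for Selp. Capitals mark matches to 3 motifs searched on both strands, namely the ETS letters GGAAGT, the SOX letters ACAATG and the GATA letters TGATAA.
Emcn: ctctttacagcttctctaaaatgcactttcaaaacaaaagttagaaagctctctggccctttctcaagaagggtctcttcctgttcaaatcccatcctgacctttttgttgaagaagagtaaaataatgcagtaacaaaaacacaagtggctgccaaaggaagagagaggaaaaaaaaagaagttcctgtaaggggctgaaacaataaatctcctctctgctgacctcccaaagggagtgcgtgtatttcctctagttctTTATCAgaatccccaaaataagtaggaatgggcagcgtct
Myct1: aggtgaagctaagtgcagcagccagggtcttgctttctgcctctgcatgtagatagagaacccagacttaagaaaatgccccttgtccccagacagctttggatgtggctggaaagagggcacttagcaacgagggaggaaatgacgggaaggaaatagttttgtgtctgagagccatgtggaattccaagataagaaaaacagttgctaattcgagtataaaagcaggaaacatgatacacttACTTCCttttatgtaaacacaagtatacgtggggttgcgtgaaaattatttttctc
Selp: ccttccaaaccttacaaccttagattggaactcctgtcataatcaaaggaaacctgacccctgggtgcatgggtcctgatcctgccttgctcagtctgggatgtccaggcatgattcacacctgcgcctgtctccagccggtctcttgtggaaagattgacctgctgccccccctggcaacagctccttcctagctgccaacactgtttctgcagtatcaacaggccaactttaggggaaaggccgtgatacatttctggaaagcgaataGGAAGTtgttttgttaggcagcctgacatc

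The Emcn window held 1 GATA match and the Myct1 and Selp windows 1 ETS match each. Promoter windows were given for 22 of the 42 genes, 29 windows in all. An ETS match was present in 27.6% of these 29 windows and in 23.8% of all 32851 promoter windows of the same length. The SOX letters were in 13.8% against 12.6%, and the GATA letters in 17.2% against 9.05%. A match describes letters in the window and shows no binding.

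Some arrays stood apart before any comparison. The mean log2 intensity of the probe sets at the 5' end of Gapdh and Actb, which falls when RNA is degraded or when the 2 genes are less expressed, was 11.92 to 12.18 on the 3 PDGF arrays of day 7 and 11.72 on array 5 of the untreated skin. On the other arrays it was 12.76 to 13.51. Array 5 of the untreated skin also correlated least with the other arrays of its group (r of 0.945, where the lowest of any other array was 0.986). Its summed fibroblast and proliferation genes were higher, and its leukocyte, macrophage, platelet and adipocyte genes lower, than on the other 4 untreated arrays. As a background level, 6 Y-linked genes, absent from female mice, read 2.31 to 5.56 on the log2 scale. The upper end came from Sry alone (4.62 to 5.56), and no other of these genes read above 3.78. Levels between 3.78 and 5.56 are thus called background by 1 probe set, and such genes may still be expressed. The highest group means of Cdh5, Bmx, Selp, Sele and Prox1 lay within the range of 2.31 to 5.56, so changes of these 5 probe sets were measured near background. In control wounds of day 7 the means of 11 of the 42 genes lay within the range, among them Myct1, Rasip1, Cd93, Calcrl, Arhgef15 and Erg, and with PDGF at day 7 those of 11 genes, among them Eltd1, Calcrl and Cd93. The size of a change against such a group, and its rank among the genes, is uncertain.

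**Figure D1:**
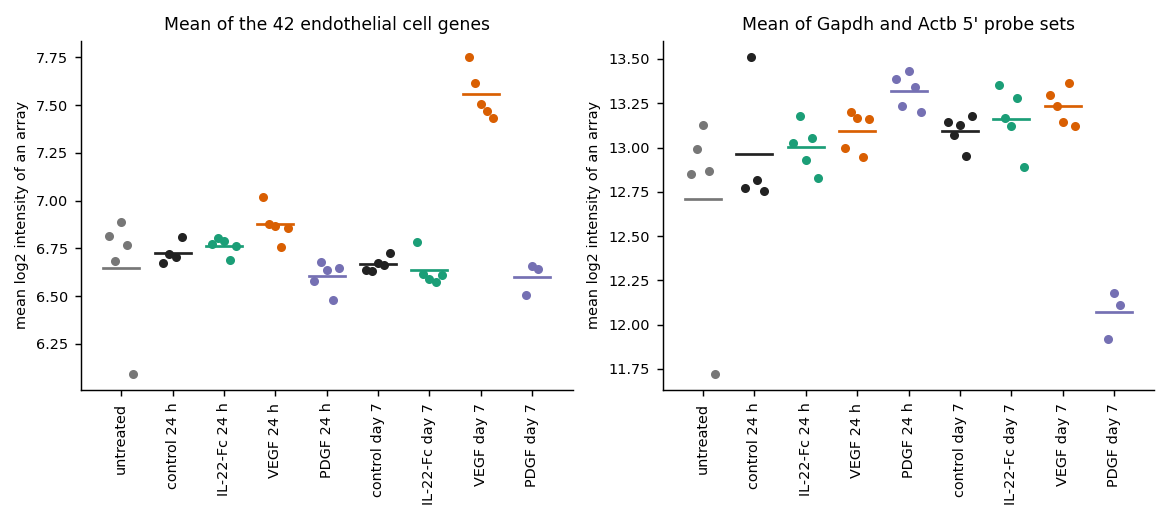
Mean log2 intensity on each array, for the 42 endothelial genes (left) and for the 5' probe sets of Gapdh and Actb (right). Each point is an array and each bar the mean of a group. The 5 VEGF arrays of day 7 lie at 7.43 to 7.75 on the left, above all other arrays, and the 3 PDGF arrays of day 7 and 1 untreated array lie below the others on the right.

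Averaged over the 42 genes, the log2 level of an array was 6.63 to 6.73 in control wounds of day 7, 6.58 to 6.78 with IL-22-Fc, 6.51 to 6.66 with PDGF and 7.43 to 7.75 with VEGF. The plot of mean levels by array shows no overlap between the VEGF arrays of day 7 and any other array of the series. At 24 h the range was 6.67 to 6.81 in control wounds and 6.76 to 7.02 with VEGF, which overlapped. The highest group mean was that of VEGF at day 7 for 29 of the 42 genes. Within groups, the median correlation between pairs of the genes was 0.27 over 42 arrays (861 pairs) and 0.14 over the 41 arrays without untreated array 5. Tissue RNA cannot tell more endothelial cells from more RNA per endothelial cell.

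With VEGF most of the endothelial genes were higher at day 7. With a gene called at an adjusted p under 0.05 and at least 1.5-fold (limma over 18 arrays, Benjamini-Hochberg adjustment across the whole array), 28 of the 42 were higher and 1, Vwf, was lower than in control wounds, where 1.96% of all probe sets were called higher and 3.58% lower. The median change of the 42 was 1.03 on the log2 scale, beside -0.01 for all probe sets. Of the 26 genes not on the blood cell list, 22 were higher, and of the 16 on it, 6 were higher and 1 lower. The list was chosen with the VEGF result known, and its direction is therefore no independent evidence.

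**Figure D2:**
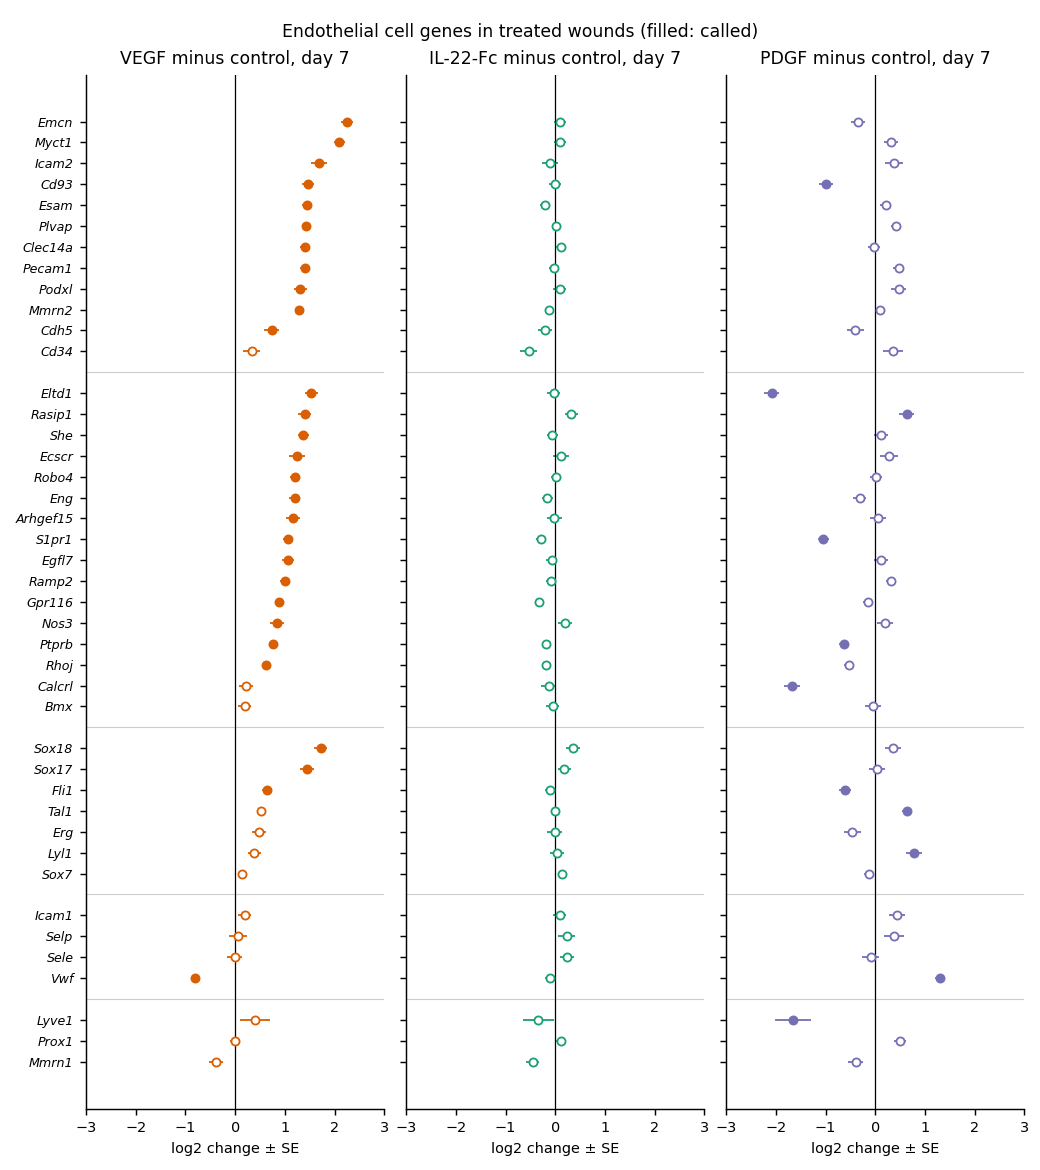
Log2 change of each of the 42 endothelial genes against control wounds on day 7, with its standard error, for VEGF, IL-22-Fc and PDGF. Genes are grouped from top to bottom as junction and surface proteins, receptors and signalling, transcription factors, leukocyte capture with Vwf, and lymphatic genes, and filled points passed the call. With VEGF 28 filled points lie above 0 and 1 below, with IL-22-Fc none is filled, and with PDGF 4 lie above 0 and 7 below.

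Among the 12 junction and surface genes, 11 were higher with VEGF. Endomucin read 7.16, 7.18, 7.18, 7.26 and 7.16 on the 5 control arrays and 9.74, 9.70, 9.32, 9.31 and 9.13 on the 5 VEGF arrays. Every VEGF array was above every control array. This was the largest measured change of the 42 genes, 2.25 on the log2 scale (SE 0.12, adjusted p = 1.4e-10, limma), or 4.77-fold. Myct1 read 4.81, 4.80, 5.13, 4.63 and 5.10 in control wounds and 7.23, 6.88, 7.04, 6.73 and 7.08 with VEGF. The measured change was 2.10 (SE 0.12, adjusted p = 3.6e-10, limma), again without overlap, but the control arrays were within the background range and its size is uncertain.

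Pecam1, the platelet endothelial adhesion molecule used to stain vessels, read 7.35, 7.48, 7.49, 7.38 and 7.77 in control wounds and 9.13, 9.00, 8.71, 8.91 and 8.69 with VEGF. The groups did not overlap, and the change was 1.40 (SE 0.10, adjusted p = 6.8e-09, limma). Icam2, an adhesion molecule of resting endothelium, rose from a mean of 6.01 ± 0.11 to 7.70 ± 0.36 (SD, n = 5 each). Changes of similar size were found for Esam, a tight junction molecule (1.44), Plvap, which forms the diaphragms of fenestrae (1.42), and podocalyxin (Podxl, 1.31). The lectin-like receptors Cd93 and Clec14a rose by 1.47 and 1.41, and their matrix ligand Mmrn2 by 1.29.

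VE-cadherin, the adherens junction protein of the endothelium, read 4.69, 4.31, 4.40, 4.16 and 4.54 in control wounds and 5.45, 5.33, 4.97, 5.05 and 4.99 with VEGF. The lowest VEGF array lay above the highest control array, with a change of 0.74 (SE 0.15, adjusted p = 0.0014, limma) close to background. Cd34, which also marks progenitor cells, was the 1 surface gene not called. It read 10.50, 10.16, 10.77, 10.81 and 10.80 in control wounds and 11.03, 10.84, 11.07, 10.89 and 10.86 with VEGF. The VEGF arrays were just above the control arrays, and the difference was 0.33 (95% confidence interval -0.03 to 0.69, adjusted p = 0.24, limma).

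Of the 16 receptor and signalling genes, 14 were higher with VEGF at day 7. Eltd1, an adhesion G protein-coupled receptor of vessels, read 7.39, 7.31, 7.23, 7.37 and 7.25 in control wounds and 9.08, 9.06, 8.83, 8.47 and 8.76 with VEGF. Its change of 1.53 (SE 0.13, adjusted p = 1e-07, limma) was the largest of the group. Rasip1, an effector of small GTPases that vessels need to form a lumen, read 5.26, 5.39, 5.22, 5.07 and 5.05 in control wounds and 7.03, 6.77, 6.25, 6.70 and 6.24 with VEGF. Both genes were without overlap between the groups.

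The other called genes of this group changed by 0.63 to 1.37 on the log2 scale. They were the guidance receptor Robo4 (1.20), the TGF-beta co-receptor endoglin (Eng, 1.20), the sphingosine 1-phosphate receptor S1pr1 (1.06), the secreted factor Egfl7 (1.06), the adhesion receptor Gpr116 (0.88), endothelial nitric oxide synthase (Nos3, 0.83) and the receptor phosphatase Ptprb (0.77), with She (1.37), Ecscr (1.24), Arhgef15 (1.16) and Rhoj (0.63). The adrenomedullin receptor is made of Calcrl and its partner Ramp2. Ramp2 rose by 1.00 (SE 0.09, adjusted p = 1.2e-07, limma), while Calcrl differed by 0.21 (95% confidence interval -0.09 to 0.52, adjusted p = 0.40, limma). The difference between these 2 changes was not tested, and the mean of Calcrl in control wounds lay within the background range.

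Bmx, a tyrosine kinase of arterial endothelium and myeloid cells, had the smallest difference of the group at 0.19 (SE 0.13, adjusted p = 0.42, limma). Its arrays read 4.02, 3.91, 3.90, 4.44 and 3.72 in control wounds and 4.17, 4.27, 3.98, 4.29 and 4.24 with VEGF, which overlapped. Both groups were at background.

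Of the 7 transcription factors, 3 were higher with VEGF. Sox18 read 7.41, 7.17, 7.64, 7.24 and 7.70 in control wounds and 9.33, 9.11, 9.12, 9.43 and 8.77 with VEGF, a change of 1.72 (SE 0.14, adjusted p = 2.9e-08, limma). Sox17 read 6.26, 5.91, 6.21, 6.08 and 6.13 in control wounds and 7.86, 7.66, 7.46, 7.28 and 7.56 with VEGF, a change of 1.45. Neither gene overlapped between the groups. Sox7, the remaining member of the SOXF family, read 7.76, 7.47, 7.68, 8.08 and 7.79 in control wounds and 7.96, 7.83, 7.92, 7.82 and 7.96 with VEGF. Its arrays overlapped, and the difference of 0.14 had a 95% confidence interval of -0.05 to 0.33.

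The ETS factor Fli1 rose by 0.64 (SE 0.10, adjusted p = 0.00012, limma). Its relative Erg and the factor Tal1, which is shared with blood cell precursors, passed the adjusted p alone, at 0.48 (SE 0.15, adjusted p = 0.032, limma) and 0.52 (SE 0.08, adjusted p = 0.00012, limma). Lyl1, a relative of Tal1, differed by 0.38 (adjusted p = 0.06, limma).

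**Figure D3:**
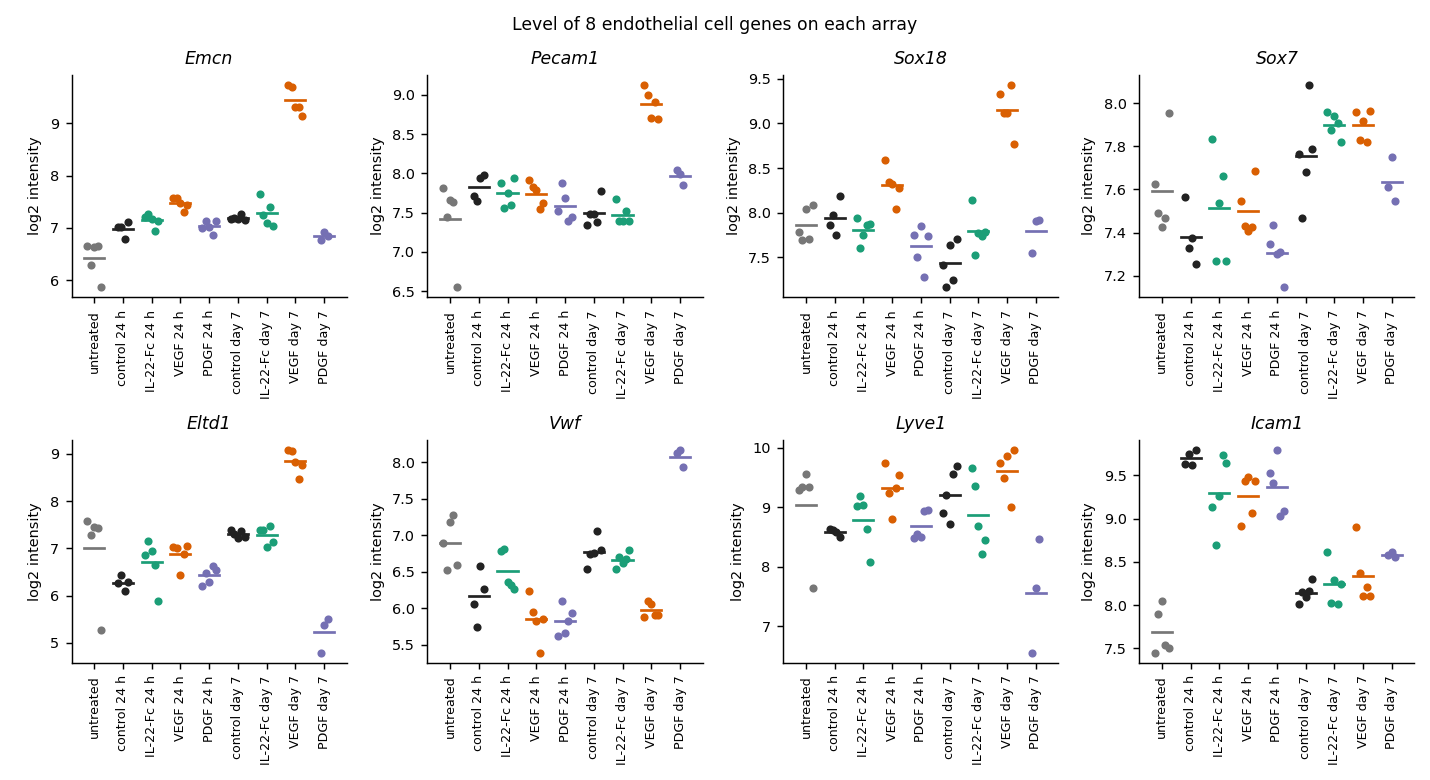
Log2 intensity of 8 endothelial genes on each of the 42 arrays, by group, with the mean of each group as a bar and a separate axis range for each gene. Emcn, Pecam1, Sox18 and Eltd1 are highest with VEGF at day 7, Sox7 overlaps between VEGF and control wounds, Vwf is highest and Eltd1 lowest with PDGF at day 7, and Icam1 is highest 24 h after wounding.

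None of the genes for leukocyte capture rose with VEGF at day 7, and Vwf fell. Vwf read 6.54, 6.74, 6.76, 7.05 and 6.79 in control wounds and 5.88, 6.10, 6.06, 5.91 and 5.91 with VEGF. All VEGF arrays were below all control arrays, and the change was -0.80 (SE 0.09, adjusted p = 2.4e-06, limma), a 1.74-fold lower level. Vwf is also made by megakaryocytes and carried by platelets, and 1 of 6 platelet genes was called lower (Gp1bb, -0.66). Summed platelet intensities were 2511 to 5408 with VEGF and 3177 to 4217 in control wounds, and their part in the Vwf result was not tested.

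Icam1 read 8.01, 8.16, 8.10, 8.16 and 8.30 in control wounds of day 7 and 8.90, 8.37, 8.11, 8.20 and 8.11 with VEGF, which overlapped. P-selectin (Selp) read 4.14, 4.64, 4.37, 3.80 and 4.11 against 4.46, 4.30, 4.33, 4.01 and 4.25, and E-selectin (Sele) 3.02, 3.49, 3.39, 3.31 and 2.91 against 3.58, 3.42, 3.03, 3.07 and 2.98. Both selectins were at background in both groups. Differences were 0.19, 0.06 and -0.01 on the log2 scale, with adjusted p of 0.41, 0.89 and 0.98 (limma).

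The 3 lymphatic genes gave no call with VEGF. Lyve1, a hyaluronan receptor of lymphatic endothelium and of some macrophages, read 8.90, 9.20, 8.72, 9.55 and 9.68 in control wounds and 9.75, 9.50, 9.85, 9.01 and 9.96 with VEGF. The groups overlapped, and the difference of 0.40 had a 95% confidence interval of -0.24 to 1.04. Prox1, the transcription factor of lymphatic identity, was at background, with 4.30, 4.23, 4.00, 3.80 and 4.13 in control wounds and 4.12, 3.94, 4.24, 3.99 and 4.19 with VEGF. Mmrn1 differed by -0.38 (adjusted p = 0.064, limma).

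Other endothelial genes, from a second list of 23 such as the VEGF receptors, Tie receptors and Notch genes, were higher for 19 and lower for none with VEGF at day 7. This list, too, was chosen with earlier results of these data known, so its direction is no independent evidence. The largest changes were those of Esm1 (3.09), Pcdh17 (2.98) and Aplnr (2.60). Genes of pericytes and smooth muscle, the cells that wrap vessels, were higher for 6 of 11, led by Rgs5 (2.05) and Abcc9 (1.55), and their summed intensity was 14419 to 15928 with VEGF and 8059 to 11204 in control wounds. All 4 adipocyte genes and 3 of 5 keratinocyte genes were lower. None of 6 leukocyte and 6 macrophage genes was called. The part of these lists in the result was not tested.

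At 24 h after 1 dose of VEGF, none of the 42 genes was called, where 0.0919% of all probe sets were called higher and 0.00967% lower. By an adjusted p alone 1 gene passed (0.126% of all probe sets were higher), and by an unadjusted p under 0.05, 16 were higher and 2 lower (5.5% and 3.9% of all probe sets, limma). The gene that passed was Emcn, which read 7.01, 7.02, 6.79 and 7.10 on the 4 control arrays and 7.57, 7.58, 7.47, 7.30 and 7.43 on the 5 VEGF arrays. All VEGF arrays were above all control arrays, and the change was 0.49 (SE 0.09, adjusted p = 0.015, limma). The median difference of the 42 genes was 0.13.

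Lyve1 had the largest difference at 24 h, 0.74 (SE 0.20, adjusted p = 0.22, limma). It read 8.63, 8.62, 8.59 and 8.50 in control wounds and 9.75, 9.24, 8.80, 9.32 and 9.54 with VEGF, which did not overlap. Eltd1, Nos3 and Podxl differed by 0.60, 0.55 and 0.49, and Icam1 by -0.43, none of which passed the adjusted p. Of the 23 other endothelial genes 4 were higher at 24 h, namely Pcdh17, Apold1, Gpihbp1 and Flt1.

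The change with VEGF was larger at day 7 than at 24 h. Tested as the change at day 7 minus that at 24 h over 37 arrays, 25 of the 42 genes were higher and none lower, where 1.62% of all probe sets were called higher and 4.38% lower. The largest measured differences were those of Myct1 (1.90, SE 0.16, adjusted p = 1.1e-09, limma) and Emcn (1.76, SE 0.15, adjusted p = 8.5e-10, limma). Myct1 at 24 h read 4.95, 5.16, 4.94 and 5.26 in control wounds and 5.50, 5.20, 5.29, 5.18 and 5.22 with VEGF, which overlapped, unlike at day 7, and all were within the background range.

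Clec14a followed with 1.48 (SE 0.21, adjusted p = 9.6e-06, limma). It read 6.25, 6.25, 6.32, 6.21 and 6.28 in control wounds and 7.29, 7.80, 7.69, 7.85 and 7.73 with VEGF at day 7. At 24 h it read 5.13, 5.38, 5.05 and 5.18 against 5.61, 4.88, 5.18, 4.71 and 5.22, so that only the day 7 groups were apart. Both 24 h means lay within the background range, which leaves the size of this difference uncertain. The difference between the times for Vwf was -0.49 and for Lyve1 -0.34 on the log2 scale, with an adjusted p of 0.12 and 0.69 (limma).

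**Figure D4:**
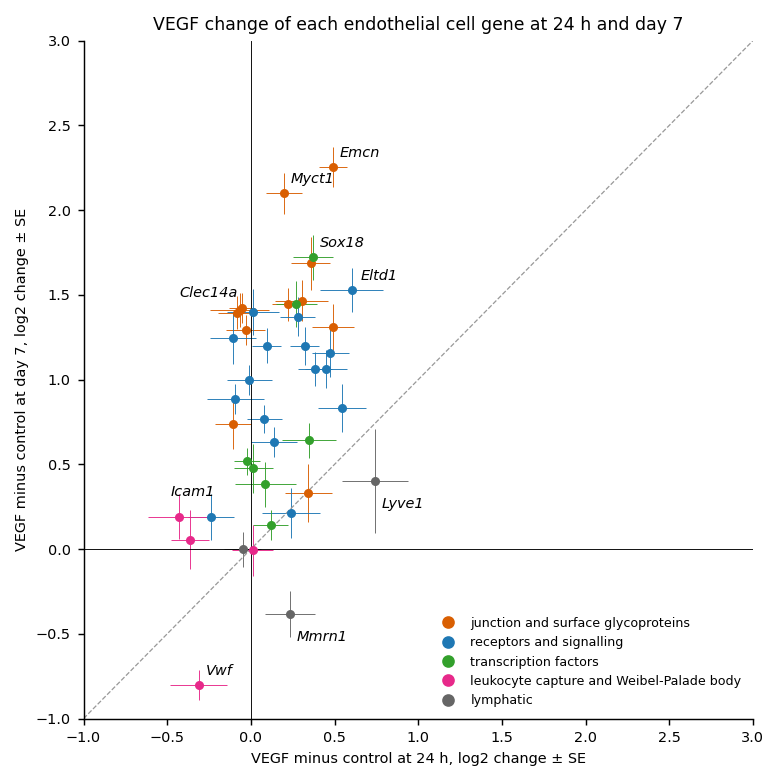
Log2 change with VEGF at 24 h (horizontal) and at day 7 (vertical) for each of the 42 endothelial genes, with standard errors, coloured by role. The dashed line marks equal changes. Most genes lie above it, with Emcn at 0.49 and 2.25 and Myct1 at 0.20 and 2.10, and Vwf lies below 0 on both axes.

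IL-22-Fc at day 7 gave no call among the 42 genes, where 1.49% of all probe sets were called higher and 0.803% lower. By an unadjusted p under 0.05, 2 were higher and 7 lower (8.66% and 9.87% of all probe sets, limma), and the median difference was -0.02. Gpr116 was lower by the adjusted p alone (2.64% of all probe sets), at -0.32 (SE 0.09, adjusted p = 0.04, limma). Cd34 differed by -0.54 (95% confidence interval -0.90 to -0.17, adjusted p = 0.08, limma), with 9.30, 10.22, 10.29, 10.09 and 10.46 on the IL-22-Fc arrays, which overlapped with the control arrays. Mmrn1 read 6.98, 7.01, 6.93, 7.04 and 6.87 in control wounds and 6.42, 6.74, 6.27, 6.45 and 6.69 with IL-22-Fc, a difference without overlap of -0.45 (adjusted p = 0.054, limma). Leaving out control array 2 or IL-22-Fc array 5 of day 7 gave 1 call.

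With IL-22-Fc at 24 h none of the genes was called either, where 0.0629% of all probe sets were called higher and 0.0339% lower, and 4 were higher and 1 lower by an unadjusted p under 0.05 (3.34% and 3.67% of all probe sets, limma). Eltd1 had the largest difference, 0.42 (95% confidence interval 0.03 to 0.82, adjusted p = 0.68, limma). Between the times, the IL-22-Fc change of 1 gene, Mmrn1, differed, by -0.80 (SE 0.21, adjusted p = 0.037, limma), where 0.629% of all probe sets were higher and 0.803% lower. Mmrn1 at 24 h read 7.19, 6.82, 7.15 and 7.53 in control wounds and 7.34, 8.02, 7.72, 7.39 and 7.14 with IL-22-Fc. This call was sensitive to single arrays, since the count became 0 without any 1 of 10 arrays and 2 without either of 2 others.

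Of the 23 other endothelial genes none was called with IL-22-Fc at day 7. Set directly against IL-22-Fc at day 7, VEGF gave 29 genes higher and 1 lower, where 3.73% of all probe sets were called higher and 4.74% lower. Emcn read 7.65, 7.24, 7.09, 7.40 and 7.04 on the IL-22-Fc arrays, all below the lowest VEGF array. Its difference was 2.15, that of Myct1 2.01 and that of Icam2 1.79. Icam2 read 6.28, 5.60, 5.73, 5.85 and 6.09 with IL-22-Fc and 8.03, 8.01, 7.69, 7.64 and 7.15 with VEGF, again apart. This comparison and those with control wounds share the VEGF or IL-22-Fc arrays.

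PDGF at day 7 gave calls in both directions. Of the 42 genes 4 were higher and 7 lower than in control wounds, where 6.47% of all probe sets were called higher and 9.56% lower, and the median difference was 0.08. Eltd1 read 4.79, 5.37 and 5.50 on the 3 PDGF arrays, all below the control arrays given above, and changed by -2.09 (SE 0.15, adjusted p = 1.6e-09, limma). Calcrl read 5.67, 4.99, 5.40, 5.70 and 5.95 in control wounds and 3.86, 3.65 and 4.09 with PDGF, a change of -1.67 (SE 0.17, adjusted p = 1.4e-07, limma). Neither gene overlapped, and on the PDGF arrays both were within the background range, which leaves the size of their changes uncertain. Lyve1 read 6.56, 7.64 and 8.47 with PDGF, all below the control arrays but far from each other, and changed by -1.65 (SE 0.35, adjusted p = 0.00092, limma). The other lower genes were S1pr1 (-1.04), Cd93 (-1.0), Ptprb (-0.64) and Fli1 (-0.61).

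Vwf was the gene most raised with PDGF at day 7. Its 3 arrays read 8.12, 8.17 and 7.93, above the highest control array, a change of 1.30 (SE 0.10, adjusted p = 5.3e-09, limma). The other higher genes were Lyl1 (0.78), Tal1 (0.64) and Rasip1 (0.63), of which Lyl1 and Tal1 are also expressed by blood cells. Macrophage genes were higher for 4 of 6 (Cd163, Cd68, Mrc1 and Csf1r), with a summed intensity of 18448 to 19303 against 8746 to 10022, leukocyte genes for 3 of 6 with 1 lower, and platelet genes for 1 of 6 (Pf4, 0.62). Of the 23 other endothelial genes 2 were higher and 2 lower. Pericyte and smooth muscle genes were lower for 3 of 11, led by Rgs5 (-2.38). The part of these cells in the result was not tested.

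The 3 PDGF arrays of day 7 were those with the low 5' level. With that level as a covariate none of the 42 genes was called and the median difference was 0.42, while the median SE grew from 0.14 to 0.42. Calls over all probe sets fell from 16% to 0.885% in that fit, so the loss was not particular to these genes. Eltd1 then differed by -1.44 (SE 0.45, adjusted p = 0.12, limma) and Vwf by 0.75 (SE 0.29, adjusted p = 0.22, limma), both smaller than without the covariate. Others were larger, such as Calcrl at -1.96 (SE 0.52, adjusted p = 0.081, limma) and Rasip1 at 1.38 (SE 0.45, adjusted p = 0.14, limma). The 7 genes lower with PDGF were also all lower on untreated array 5, the other array with a low 5' level, than on the other 4 untreated arrays, by a median of 1.82 on the log2 scale, and Eltd1 read 5.26 there against 7.27 to 7.59. Over all 42 genes 30 were below and 3 above the other untreated arrays. Of the 4 genes higher with PDGF, 1 was below and none above. PDGF treatment and the low 5' level cannot be told apart at day 7. For VEGF at day 7, 28 genes were higher and 1 lower in a fit without the 3 PDGF arrays, and 27 higher and 1 lower with the covariate, where 5.25% of all probe sets were called.

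At 24 h the PDGF arrays had a 5' level of 13.20 to 13.43 (mean 13.32), not below the other arrays. It was 12.76 to 13.51 on the control arrays of 24 h, with a lower mean of 12.96. With PDGF at 24 h 1 gene, Cd34, was lower and none higher, where 0.29% of all probe sets were called higher and 0.624% lower. Cd34 read 9.30, 8.72, 9.36 and 9.34 in control wounds and 8.35, 8.64, 8.56, 8.55 and 8.31 with PDGF. All PDGF arrays were below all control arrays, and the change was -0.70 (SE 0.14, adjusted p = 0.012, limma). The count was 0 without control array 3 or 4 and 2 without control array 2. E-selectin was higher by the adjusted p alone (0.489% of all probe sets), at 0.52 (SE 0.12, adjusted p = 0.034, limma), near background. By an unadjusted p under 0.05, 2 genes were higher and 12 lower (6.44% and 9.23% of all probe sets).

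The PDGF change differed between the times for 19 genes, 12 higher and 7 lower at day 7, where 10.3% of all probe sets were called higher and 10.6% lower. The largest were Eltd1 (-2.24), Calcrl (-1.96), Lyve1 (-1.75) and Vwf (1.63). Eltd1 at 24 h read 6.27, 6.44, 6.09 and 6.29 in control wounds and 6.21, 6.48, 6.28, 6.63 and 6.55 with PDGF, which overlapped. Calcrl overlapped too, with 4.23, 4.90, 4.63 and 4.39 against 5.12, 4.72, 4.77, 4.84 and 4.68, all within the background range. With the 5' level as a covariate none of the 42 was called, where 0.687% of all probe sets were called.

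Set against PDGF at day 7, VEGF gave 31 genes higher and 1, Vwf, lower, where 10.4% of all probe sets were called higher and 9.63% lower. The largest differences were those of Eltd1 (3.62), Emcn (2.60) and Cd93 (2.46). Emcn read 6.76, 6.92 and 6.84 with PDGF. Cd93 read 4.29, 4.40 and 3.66 with PDGF and 6.81, 6.67, 6.33, 6.59 and 6.50 with VEGF, and neither gene overlapped. With the 5' level as a covariate 1 gene was called, namely Eltd1, at 2.88 (SE 0.50, adjusted p = 0.012, limma), where 0.397% of all probe sets were called.

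Control wounds 24 h after wounding were set against untreated skin, which may differ in genotype and age as well as in the wound. The titles of the untreated arrays also form a run of numbers apart from those of the wounds. Any such difference between the sets of samples cannot be told apart from the wound. Of the 42 genes 6 were higher and 7 lower, where 7.86% of all probe sets were called higher and 10.3% lower (limma over 42 arrays). Icam1 read 7.45, 7.89, 8.05, 7.54 and 7.50 in untreated skin and 9.63, 9.75, 9.62 and 9.79 at 24 h. All wound arrays were above all untreated arrays, and the change was 2.01 (SE 0.17, adjusted p = 1.6e-11, limma), or 4.02-fold. Selp, which stayed at background in untreated skin with 4.11, 4.12, 4.29, 4.04 and 4.17, read 5.27, 5.71, 5.45 and 5.39 at 24 h, a change of 1.31. Ecscr, a surface protein of endothelial cells, read 7.06, 7.32, 7.16, 6.97 and 6.84 in untreated skin and 8.48, 8.39, 8.45 and 8.34 at 24 h, a change of 1.34. Rasip1, Bmx and Plvap rose by 0.81, 0.59 and 0.59.

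The lower genes at 24 h were Mmrn1 (-0.94), Cd34 (-0.82), Gpr116 (-0.79), Ptprb (-0.77), Vwf (-0.73), Eltd1 (-0.72) and Myct1 (-0.60). Mmrn1 read 8.64, 8.24, 8.44, 8.30 and 6.92 in untreated skin, the last value on array 5, so that it overlapped with the wounds only through that array. Without array 5, 4 genes were higher (Icam1, Selp, Ecscr and Rasip1) and 11 lower, where 8.94% of all probe sets were called higher and 12.2% lower. Calcrl, Lyve1, Rhoj and Clec14a were then among the lower genes, and Bmx and Plvap were not called. Summed leukocyte genes were 8649 to 10172 at 24 h and 1122 to 5763 in untreated skin, and Icam1, Selp and Bmx are also expressed by blood cells or platelets. Their part in the result was not tested.

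**Figure D5:**
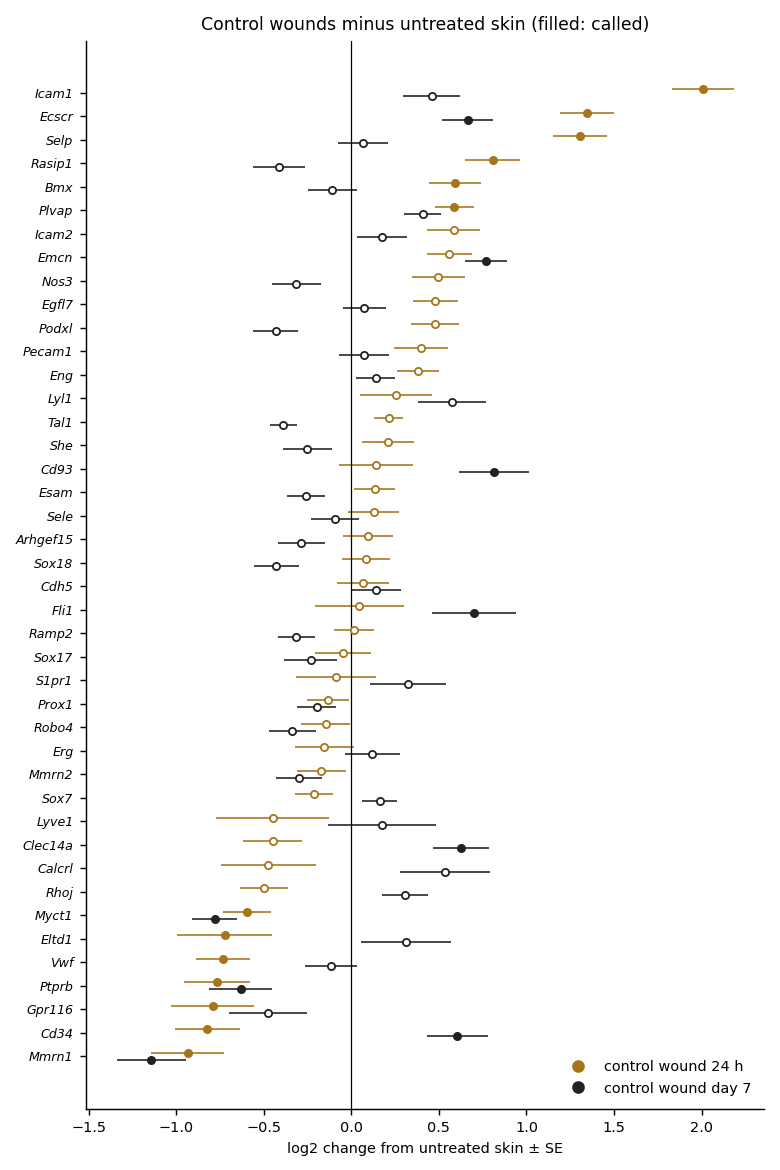
Log2 change of each of the 42 endothelial genes in control wounds at 24 h and at day 7 against untreated skin, with standard errors and all 5 untreated arrays included. Filled points passed the call. Icam1 and Selp are called at 24 h, at 2.01 and 1.31, and not at day 7, and Mmrn1 is lower at both times.

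At day 7, 6 genes were higher and 3 lower in control wounds than in untreated skin, where 7.4% of all probe sets were called higher and 8.3% lower. The higher genes were Cd93 (0.81), Emcn (0.77), Fli1 (0.70), Ecscr (0.66), Clec14a (0.63) and Cd34 (0.60), and the lower ones Mmrn1 (-1.14), Myct1 (-0.78) and Ptprb (-0.63). Emcn read 6.65, 6.28, 6.64, 6.66 and 5.86 in untreated skin, all below the control wounds. Myct1 read 5.77, 5.87, 5.99, 5.65 and 5.09 in untreated skin, and overlapped with control wounds through array 5. Without array 5, 4 genes were higher (Cd34, Emcn, Ecscr and Cd93) and 4 lower, with Gpr116 as the added one, where 7.85% of all probe sets were called higher and 9.45% lower. Cd93, Cd34 and Fli1 are also expressed by blood cells. All 6 macrophage genes, 4 of 6 leukocyte genes, 5 of 6 fibroblast genes and 4 of 5 proliferation genes were higher at day 7 than in untreated skin, and all 4 adipocyte genes lower. These counts included array 5, whose summed intensity lay outside the range of the other untreated arrays for each of these lists. The part of these genes in the result was not tested.

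From 24 h to day 7 control wounds moved in both directions, with 8 genes higher and 8 lower, where 7.19% of all probe sets were called higher and 6.05% lower. Icam1 and Selp fell by 1.55 and 1.24 on the log2 scale, and no control array of day 7 reached the 24 h arrays given above. The other lower genes were Rasip1, Podxl, Nos3, Bmx, Ecscr and Tal1. Cd34 rose by 1.43 (SE 0.19, adjusted p = 1.6e-07, limma), and Clec14a, Eltd1 and Calcrl by 1.08, 1.03 and 1.01, each without overlap. The 24 h arrays of Clec14a and Calcrl were within the background range, and the size of their changes is uncertain. Rhoj, Cd93, Fli1 and Vwf rose by 0.81, 0.67, 0.66 and 0.61. Leukocyte genes were lower for 4 of 6 over the same time, while fibroblast genes were higher for 4 of 6 and pericyte and smooth muscle genes for 5 of 11, and their part in the result was not tested. The time points were separate sets of wounds that also differed in the number of doses of control protein.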

How the data were processed

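Affymetrix Mouse430V2 arrays were processed by the authors, who applied RMA normalization and selected, for each Entrez gene, its most variable probe set. The deposited intensity is on a linear scale for 20672 probe sets, and its log2 was used here (log2 values had been planned for). Of these, 17928 carry 1 gene symbol, 79 several and 2665 none. The number of arrays limits the precision. The tools were limma 3.58.1 and the data.table package (version 1.17.8) in R 4.3.3, with fits over 18 arrays (day 7), 19 (24 h), 42 (untreated skin and times) and 37 (difference between times). The Benjamini-Hochberg adjustment ran across the whole array, and a call needed 1.5-fold with an adjusted p under 0.05. The fits were tested only on simulated data with independent normal noise and no array standing apart, with calls by the adjusted p alone. Groups came from the labels, and array numbers are only running names.

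The 42 genes, their roles and the other lists were chosen with earlier results of these data known. All genes may be named. Values per array are given, in most cases, for the 2 called genes of each role with the largest VEGF change at day 7 and the 1 with the smallest, for Pecam1, Cdh5, Sele, Selp, Icam1, Lyve1 and Prox1, and for the 3 largest called changes of each comparison. Of other genes, up to 3 called ones of each list are named by size, beyond which some are named to account for counts. Red cell, fibroblast and proliferation genes gave 0, 1 and 0 calls with VEGF at day 7. Alternatives were another normalization, a level filter, array weights, a trend with robust variances, a wider fit, the 5' level as a covariate, no fold threshold, each array left out and, added after seeing the data, fits without the PDGF arrays of day 7 or untreated array 5.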

Additional observations from a re-analysis of the deposited data

Results flagged for a closer look

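A single array far from the rest of its group was looked for in 192 sets of values, each 1 gene or mean over the 4 or 5 arrays of a group, and 15 were found, where chance gives about 1 in 20. Untreated array 5 was 6 of these, with a mean of 6.09 over the 42 genes and log2 levels of 5.26 for Eltd1, 5.63 for Sox17, 7.64 for Lyve1, 6.92 for Mmrn1 and 4.97 for Clec14a. IL-22-Fc array 1 of day 7 had the highest mean of its group, 6.78. In control wounds, array 4 of day 7 read 7.26 for Emcn and 4.83 for Cd93, and array 2 of 24 h read 8.72 for Cd34. VEGF array 3 of 24 h read 6.43 for Eltd1. Among the PDGF arrays of 24 h, array 2 read 5.01 for Bmx, array 4 read 4.12 for Cdh5 and 7.87 for Ecscr, and array 1 read 4.91 for Cd93.

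The change against control wounds differed between day 7 and 24 h for 25 of the 42 genes with VEGF, 1 with IL-22-Fc and 19 with PDGF, each tested as a difference of changes with limma. On the log2 scale the difference was 1.90 for Myct1, 1.76 for Emcn and 1.48 for Clec14a with VEGF, -0.80 for Mmrn1 with IL-22-Fc, and -2.24 for Eltd1, -1.96 for Calcrl and -1.75 for Lyve1 with PDGF. The PDGF differences rest on the 3 arrays with a low 5' level.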

How the results depend on the processing

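Without a fold threshold the genes called of 42 were 1 for IL-22-Fc and 19 for PDGF at day 7, 1 for VEGF and 2 for PDGF at 24 h, and 23 and 18 for control wounds at 24 h and day 7 against untreated skin. Under the same rule 5.45%, 34.9%, 0.135%, 1.89%, 39.5% and 36.8% of all probe sets passed, in that order. Array weights gave 1 for VEGF and 2 for PDGF at 24 h. The fit over all 42 arrays gave 0 for PDGF at 24 h. A filter on levels gave 2 for the IL-22-Fc difference between the times. The 5' level as a covariate gave 0 for PDGF at day 7, 0 for PDGF at 24 h, 1 for VEGF against PDGF, 2 for the IL-22-Fc and 0 for the PDGF difference between the times. It turned the VEGF against PDGF difference of Cdh5 to -0.29, of Rasip1 to -0.079 and of Ecscr to -0.36, none past the threshold. This level was low on all PDGF arrays of day 7, so the covariate overlaps with that contrast.

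With each array left out in turn, calls ranged from 28 to 29 for VEGF, 0 to 1 for IL-22-Fc and 10 to 12 for PDGF at day 7, and 0 to 2 for PDGF at 24 h. VEGF and IL-22-Fc at 24 h stayed at 0. They ranged from 31 to 33 for VEGF against PDGF, 29 to 31 for VEGF against IL-22-Fc, 11 to 15 and 7 to 11 for control wounds against untreated skin, 13 to 16 between the control times, and 24 to 27, 0 to 2 and 17 to 22 for the differences between the times with VEGF, IL-22-Fc and PDGF. The IL-22-Fc difference was 0 without control array 1 or 4 or IL-22-Fc array 1, 3 or 4 of day 7, or without control array 1, 2 or 3 or IL-22-Fc array 2 or 3 of 24 h, and 2 without IL-22-Fc array 5 of day 7 or control array 4 of 24 h. Other counts remained within 1.5 times. No paired analysis was possible because the labels give no replicate numbers.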
